A study of Mus musculus with 2 samples.

Results

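Conventional CD4 T cells are the T cells that carry the coreceptor CD4 and lack the regulatory factor Foxp3, and they were examined here among leukocytes of mosaic squamous cell carcinomas of the mouse. The cells were chosen by their own UMI counts of marker genes. A barcode was taken when it held at least 1 unique molecular identifier (UMI, a tag that counts an RNA molecule once) of Cd3e and at least 1 of Cd4, none of Foxp3, Ikzf2, Cd8a, Cd8b1 or Csf1r, and fewer than 3 of Mki67 and Top2a together. The rule was met by 115 of 11552 barcodes that had 1000 or more gene UMIs, 500 or more genes and no more than 10% of UMIs from mitochondrial genes. What the rule used is given below as description, with no test. They were 35 of 4818 barcodes in replicate 1 and 80 of 6734 in replicate 3.

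The series asks how differences among cancer cells go with the arrangement of immune cells in a tumour. Subcutaneous tumours arose in untreated mice of the FVB genotype after 2 carcinoma lines, YFP-labelled CIT6 and RFP-labelled CIT9, were injected together. Sections were marked with light-printed oligonucleotide codes, digested with collagenases I and IV, sorted for the leukocyte protein CD45 and profiled with the 10x Genomics 3' v3 chemistry. Both samples, replicate 1 and replicate 3, belong to 1 group, the untreated mosaic tumour, so every comparison is between cell classes of the same tumours. The labels give neither the animals' age nor whether the tumours came from separate animals, and p-values measure only how far class differences vary between these 2 samples. Conventional CD4 T cells were set against Foxp3 regulatory T cells (at least 1 UMI of Cd3e, Cd4 and Foxp3, none of Cd8a, Cd8b1 or Csf1r; 102 and 100 cells) and against CD8 T cells (at least 1 UMI of Cd3e and of Cd8a or Cd8b1, none of Cd4, Foxp3, Ikzf2 or Csf1r; 17 and 151 cells), each with the same limit on Mki67 and Top2a.

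A CD4 T cell recognises peptides on MHC class II and acts largely through other cells. It licenses dendritic cells and activates macrophages and B cells through surface ligands such as CD40 ligand, and it secretes cytokines whose combination defines the T helper 1, 2, 17 and follicular programs. In tumours such cells share the tissue with Foxp3 regulatory T cells, which restrain them, and with CD8 T cells, the main killers of target cells.

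The label was checked against genes the rule did not use. Trbc2, a constant segment of the T cell receptor beta chain, had a UMI in 34 of 35 cells of replicate 1 and 80 of 80 of replicate 3. Trac, the constant segment of the alpha chain, had one in 80% and 92.5% of the cells, against 1.08% and 2.06% of macrophages (at least 2 UMIs of Csf1r, none of Cd3e), which should lack the gene. All 7 T cell markers were detected in both tumours, with a summed level of 6018 and 7649 CPM (UMIs per 1000000 gene UMIs of the class). Of 6 markers of NK and innate-like T cells, Ncr1, Klra8, Klre1 and Eomes were at 0 in both tumours, and Klrb1c was at 6.03 and 12.2 CPM and Zbtb16 at 6.03 and 4.06 CPM. Also at 0 in both were Cd79a, Cd79b, Ms4a1 and Jchain of B and plasma cells. Of 7 gamma-delta T cell markers 1 was detected in each tumour, at 18.1 and 16.2 CPM.

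The rule has thresholds, and many cells lay near them. Cd4 was seen as exactly 1 UMI in 24 of 35 and 42 of 80 cells, and Cd3e in 8 and 11. Just outside, 36 and 88 barcodes failed only on Cd4, 36 and 48 only on Ikzf2, 6 and 5 only on Foxp3, 20 and 35 only on Csf1r, 3 and 11 only on Cd3e, 0 and 13 only on Cd8a or Cd8b1, and 1 in each tumour only on dividing-cell genes. Ikzf2 was detected in 94.1% and 95% of the Foxp3 regulatory cells. Because Foxp3 and Ikzf2 separate the classes by construction, genes that vary together with them are not free of the rule.

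The matrices held 89040909 gene UMIs in replicate 1 and 170328781 in replicate 3. Conventional CD4 T cells were shallow, with a median of 4085 and 5043 UMIs per cell, against 4425.5 and 6691.5 in Foxp3 regulatory cells, 6161 and 7654 in CD8 T cells, and 19027 and 24038 in macrophages. Their UMIs summed to 165839 and 492366. Scores for doublets removed none of them, but 1 barcode of replicate 3 held 34878 UMIs, of which 208 were Col1a1 and Col3a1, genes of fibroblasts; the next deepest had 15529. Among the Foxp3 regulatory cells of replicate 1, which held 568 UMIs of the neutrophil genes S100a8 and S100a9, 6 barcodes had 3 or more of them. Named calls that were lost without either are given with and without them. Summed levels of the 10 macrophage markers were 422 and 1034 CPM in conventional CD4 cells, against 814 and 1222 CPM in Foxp3 regulatory cells and 341 and 998 CPM in CD8 T cells, with Csf1r at 0 by the rules. The 9 dendritic cell markers summed to 301.5 and 963 CPM in conventional CD4 cells, against 771 and 2018 CPM in Foxp3 regulatory cells. In conventional CD4 cells Flt3, Xcr1, Clec9a, Cd209a and Itgax were at 0. Fscn1 was at 0 and 18.3 CPM in them, against 0 and 1.27 CPM in Foxp3 regulatory cells. H2-Aa, H2-Ab1 and Cd74 made up the rest of the sum and were lower than in Foxp3 regulatory cells of the same tumour. The 7 markers of mast cells, basophils and type 2 innate lymphoid cells summed to 6.03 and 8.12 CPM in conventional CD4 cells, against 567 and 140 CPM in Foxp3 regulatory cells. In Foxp3 regulatory cells Calca was at 294 and 0 CPM, Klrg1 at 174 and 114 CPM and Il1rl1 at 99.2 and 25.4 CPM. Cpa3, Mcpt4, Tpsab1 and Mcpt8 were at 0 there. The part of cells of these other types in the results was not tested. The tumours shared 9 passing barcodes, of which 1 was a conventional CD4 T cell of replicate 3.

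Conventional CD4 T cells were a small share of the sorted leukocytes. They made up 0.726% of passing barcodes in replicate 1 (95% exact binomial interval 0.507 to 1.01) and 1.19% in replicate 3 (0.943 to 1.48), a mean of 0.957% ± 0.326 (SD, n = 2). Among barcodes with Cd3e, without Csf1r and not dividing, they were 8.77% (6.19 to 12) and 11.2% (8.96 to 13.7), a mean of 9.97% ± 1.70 (SD, n = 2). Over the same denominator Foxp3 regulatory cells were 25.6% and 14.0%, and CD8 T cells 4.26% and 21.1%. Over that denominator the conventional CD4 share differed less between the tumours, in percentage points, than either of those shares. Over passing barcodes Foxp3 regulatory cells were 2.12% and 1.485%, and CD8 T cells 0.353% and 2.24%. Intervals cover counting error only.

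Against Foxp3 regulatory cells, conventional CD4 T cells had more RNA for helper ligands, for genes of naive and memory T cells and for interferon gamma. They had less RNA for the receptors and effector molecules of activated regulatory cells, among them Il2ra, Tnfrsf9, Tnfrsf4, Ctla4, Il10 and Gzmb. Of 7134 genes tested with edgeR's quasi-likelihood test, 246 were higher (3.45% of those tested) and 252 lower (3.53%) at a Benjamini-Hochberg adjusted p under 0.05. Of these 498 genes (6.98% of those tested), 489 had the same direction in both tumours. The same tumours gave the calls, so this agreement is description and no separate support. The counts were 77 higher and 94 lower without the tumour as a block, 162 and 124 with DESeq2's Wald test, and 136 and 114 after each cell was thinned to 2000 UMIs. Values below are in the order replicate 1, replicate 3, and fold changes are log2 ratios of conventional CD4 over the other class with their standard errors.

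**Figure D1:**
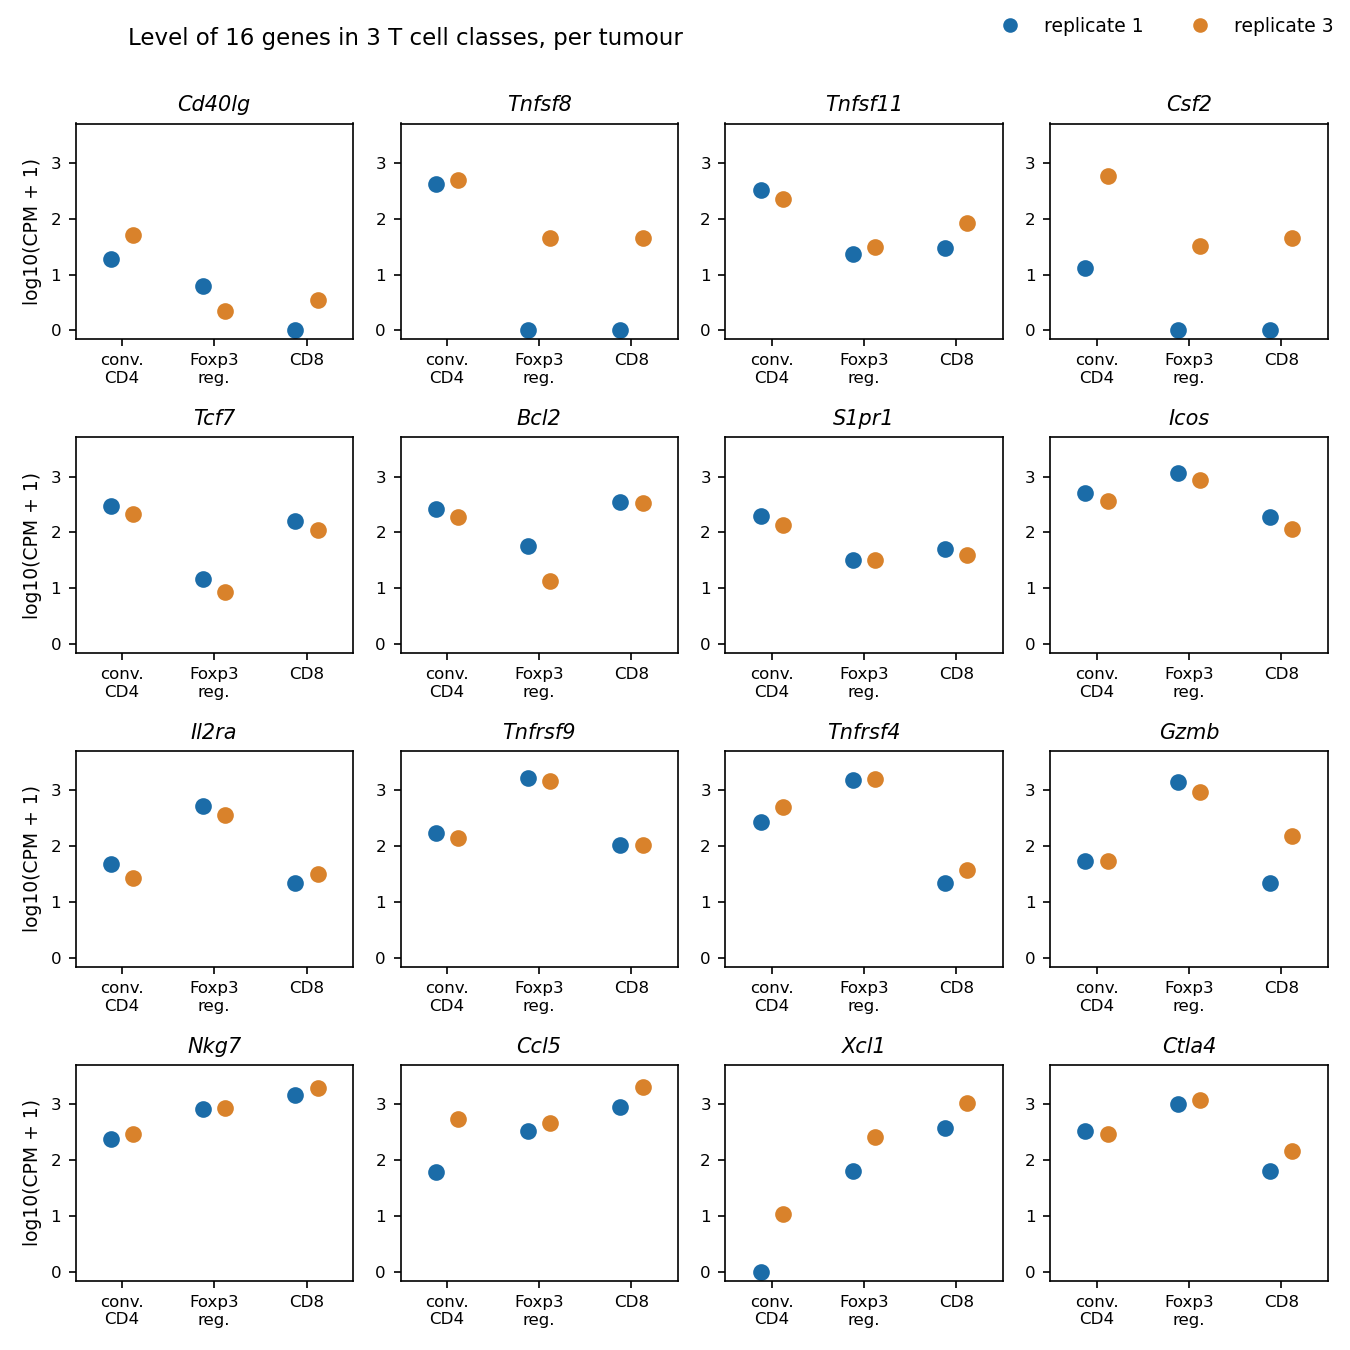
Level of selected genes in each T cell class, as log10(CPM + 1) on the vertical axis. Each point is the summed count of 1 class in 1 tumour (blue, replicate 1; orange, replicate 3); Tnfsf8 and Tcf7 of conventional CD4 cells lie above both points of Foxp3 regulatory cells, and Il2ra, Tnfrsf9 and Gzmb lie below them.

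Several helper ligands were higher. Of 14 listed signals to antigen-presenting and B cells, 11 passed the filter on low counts; 5 were higher and 1 lower, with a median of 2.08, against -0.00731 over all genes tested. Tnfsf8, which encodes CD30 ligand, was at 422 and 498 CPM in conventional CD4 cells, against 0 and 43.1 CPM in Foxp3 regulatory cells. The difference was 4.50 ± 0.442 (edgeR adjusted p = 7.20e-07). Tnfsf11, which encodes RANK ligand, was at 319.6 and 219 CPM in conventional CD4 cells, against 22.6 and 30.5 CPM in Foxp3 regulatory cells, a difference of 3.40 ± 0.343 (edgeR adjusted p = 9.35e-07). In replicate 1, 36 of its 53 UMIs in conventional CD4 cells lay in 1 cell, and the level without that cell was 110 CPM. Cd40lg, the ligand that licenses dendritic cells and drives B cell help, was low in level, with 18.1 and 50.8 CPM in conventional CD4 cells, against 5.22 and 1.27 CPM in Foxp3 regulatory cells. Its difference of 3.73 ± 0.825 (edgeR adjusted p = 0.00603) did not pass with DESeq2. Lta, which encodes lymphotoxin alpha, was at 84.4 and 46.7 CPM in conventional CD4 cells, against 8.7 and 20.3 CPM in Foxp3 regulatory cells, a difference of 2.08 ± 0.498 (edgeR adjusted p = 0.0103). In replicate 1, 8 of the 14 Lta UMIs of conventional CD4 cells lay in 1 cell, and the level without that cell was 38.9 CPM.

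Csf2, which encodes GM-CSF, a growth factor for myeloid cells, came almost wholly from 1 tumour. It was at 12.1 and 575 CPM in conventional CD4 cells, against 0 and 31.7 CPM in Foxp3 regulatory cells. In replicate 1 the 2 UMIs lay in 1 cell, and in replicate 3 the 283 UMIs lay in 11 cells. The difference of 4.28 ± 0.355 (edgeR adjusted p = 1.09e-07) did not pass without the tumour block. Icos, a costimulatory receptor of activated T cells, was the member that was lower, at 500.5 and 359 CPM in conventional CD4 cells, against 1159 and 878 CPM in Foxp3 regulatory cells, a difference of -1.10 ± 0.191 (edgeR adjusted p = 0.000662) that was lost without the block and after thinning. Tnf, at 60.3 and 34.5 CPM in conventional CD4 cells, against 24.4 and 24.1 CPM in Foxp3 regulatory cells, did not pass (adjusted p = 0.276). All 10 of the Tnf UMIs of conventional CD4 cells in replicate 1 lay in 1 cell.

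Genes of naive and central memory T cells formed the next group. Of 16 tested, 8 were higher and 1 lower, with a median of 1.43. Tcf7, the transcription factor of T cells that keep the capacity to renew, was at 295 and 209 CPM in conventional CD4 cells, against 13.9 and 7.61 CPM in Foxp3 regulatory cells. Both conventional CD4 values exceeded both regulatory ones by more than 10 times, and the difference was 4.69 ± 0.325 (edgeR adjusted p = 5.92e-09). Bcl2, a survival factor, was at 259 and 189 CPM in conventional CD4 cells, against 55.7 and 12.7 CPM in Foxp3 regulatory cells, a difference of 2.99 ± 0.329 (edgeR adjusted p = 2.78e-06). S1pr1, the receptor with which T cells leave tissue, was at 193 and 134 CPM in conventional CD4 cells, against 31.3 and 31.7 CPM in Foxp3 regulatory cells, a difference of 2.46 ± 0.293 (edgeR adjusted p = 7.28e-06). Klf2, which activates S1pr1, was at 289 and 384 CPM in conventional CD4 cells, against 108 and 123 CPM in Foxp3 regulatory cells, a difference of 1.67 ± 0.279 (edgeR adjusted p = 0.000431).

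Lef1, Bach2, Foxp1 and Igfbp4 were the other higher members of the list. Lef1, a partner of Tcf7, was higher by 1.18 ± 0.297 (edgeR adjusted p = 0.0145), and that call was lost without the block, with DESeq2 and after thinning. Bach2, a repressor of effector genes, was higher by 2.53 ± 0.555 (edgeR adjusted p = 0.00529) and Foxp1, a factor of quiescence, by 1.15 ± 0.299 (edgeR adjusted p = 0.0188). Neither Bach2 nor Foxp1 was among the genes called after thinning. Igfbp4 was higher by 2.44 with the collagen-rich barcode and by 0.43 without it (edgeR adjusted p = 0.828). Ccr7, a chemokine receptor for entry into lymph nodes, was at 199 and 199 CPM in conventional CD4 cells, against 129 and 212 CPM in Foxp3 regulatory cells and did not pass (adjusted p = 0.722), nor did Il7r, the survival receptor of resting T cells, at 374 and 256 CPM in conventional CD4 cells, against 442 and 291 CPM in Foxp3 regulatory cells (adjusted p = 0.908).

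T helper programs were mixed. Of 14 T helper 1 genes tested, 4 were higher (Ifng, Stat4, Il18r1 and Bhlhe40) and 2 lower, among them Hopx. Ifng, the cytokine that activates macrophages, was at 90.4 and 77.2 CPM in conventional CD4 cells, against 19.1 and 21.6 CPM in Foxp3 regulatory cells. The difference was 2.01 ± 0.459 (edgeR adjusted p = 0.00727), and its call was lost without the block. In replicate 1, 7 of the 15 Ifng UMIs of conventional CD4 cells lay in 1 cell, and the level without that cell was 50.8 CPM. Tbx21, the factor that defines the program, was at 30.1 and 16.2 CPM in conventional CD4 cells, against 22.6 and 17.8 CPM in Foxp3 regulatory cells and did not pass (adjusted p = 0.873). Of 8 T helper 2 genes tested, Il13 was higher and Maf and Il1rl1 were lower. Il13, a cytokine of type 2 responses, had 6 UMIs in 1 cell of replicate 1 and 12 in 3 cells of replicate 3, against 2 UMIs and none in Foxp3 regulatory cells. The ratio of summed levels was 18.6 (95% exact interval 4.46 to 166), and this call was lost without the block. The interval, like those of the ratios below, pools UMIs over both tumours as if independent. It leaves out the spread between cells and tumours.

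Maf, a factor of interleukin 10 producing T cells, was at 127 and 136 CPM in conventional CD4 cells, against 919 and 571 CPM in Foxp3 regulatory cells, a difference of -2.23 ± 0.238 (edgeR adjusted p = 1.86e-06). Gata3, the defining factor of T helper 2 cells, was at 121 and 160.4 CPM in conventional CD4 cells, against 117 and 131 CPM in Foxp3 regulatory cells and did not pass (adjusted p = 0.444). Of 6 T helper 17 genes tested, Tmem176a and Tmem176b were higher, by 2.22 and 1.69, and Ahr was lower, with a difference of -1.62; none of the 3 calls held without the block. Il17a was too low to test. Of 5 follicular helper genes tested 1 was lower, Izumo1r, which encodes the folate receptor 4 also carried by regulatory cells, at 42.2 and 44.7 CPM in conventional CD4 cells, against 567 and 435 CPM in Foxp3 regulatory cells, a difference of -3.30 ± 0.269 (edgeR adjusted p = 1.09e-07).

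Regulatory genes and activation receptors were lower. Of 17 regulatory T cell genes tested (Foxp3 and Ikzf2 set aside), 10 were lower and 1 higher, with a median of -1.16. Il2ra, the high-affinity receptor chain for interleukin 2, was at 48.2 and 26.4 CPM in conventional CD4 cells, against 531 and 357 CPM in Foxp3 regulatory cells, a difference of -3.46 ± 0.352 (edgeR adjusted p = 9.35e-07). Il10, an inhibitory cytokine, was at 0 and 16.2 CPM in conventional CD4 cells, against 226 and 203 CPM in Foxp3 regulatory cells, a difference of -4.01 ± 0.426 (edgeR adjusted p = 2.52e-06) that did not pass with DESeq2. Klrg1, a receptor of terminally differentiated T cells, had no UMI in conventional CD4 cells, against 174 and 114 CPM in Foxp3 regulatory cells, so it was at least 30.6-fold lower (3 counts over the class taken as the floor). Nrp1, which marks thymus-derived regulatory cells, was the member that was higher, at 151 and 60.9 CPM in conventional CD4 cells, against 31.3 and 33 CPM in Foxp3 regulatory cells, a difference of 1.66 ± 0.361 (edgeR adjusted p = 0.00496).

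Of 8 costimulatory receptors of the TNF receptor family, 5 were lower and none higher, with a median of -1.57. Tnfrsf9, which encodes 4-1BB, was at 169 and 138 CPM in conventional CD4 cells, against 1669 and 1489.7 CPM in Foxp3 regulatory cells, a difference of -3.21 ± 0.218 (edgeR adjusted p = 5.92e-09). Tnfrsf4, which encodes OX40, was at 271 and 502 CPM in conventional CD4 cells, against 1552 and 1605 CPM in Foxp3 regulatory cells, a difference of -1.88 ± 0.198 (edgeR adjusted p = 1.53e-06). Tnfrsf18, which encodes GITR, was at 374 and 451 CPM in conventional CD4 cells, against 1159 and 1332 CPM in Foxp3 regulatory cells, and Cd27 and Tnfrsf1b were also lower, with differences of -2.55 ± 0.364 (edgeR adjusted p = 7.55e-05) and -1.68 ± 0.30 (edgeR adjusted p = 0.000865). Of 11 checkpoint genes tested, 4 were lower and none higher, with a median of -1.32. Ctla4, which blocks costimulation, was at 326 and 290.4 CPM in conventional CD4 cells, against 1018 and 1210.5 CPM in Foxp3 regulatory cells, a difference of -1.73 ± 0.228 (edgeR adjusted p = 2.89e-05). Lag3, which binds MHC class II, was at 109 and 87.3 CPM in conventional CD4 cells, against 572 and 282 CPM in Foxp3 regulatory cells, a difference of -1.85 ± 0.233 (edgeR adjusted p = 1.71e-05). Pdcd1, which encodes PD-1, did not pass, at 54.3 and 63 CPM in conventional CD4 cells, against 52.2 and 63.4 CPM in Foxp3 regulatory cells (adjusted p = 0.839).

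Cytotoxic genes split in this comparison, with 5 of 15 higher and 5 lower. Gzmb, a granzyme, was at 54.3 and 52.8 CPM in conventional CD4 cells, against 1385 and 930.1 CPM in Foxp3 regulatory cells, a difference of -4.31 ± 0.38 (edgeR adjusted p = 1.64e-07), and Nkg7, a granule protein, at 235 and 297 CPM in conventional CD4 cells, against 811 and 869 CPM in Foxp3 regulatory cells, a difference of -1.51 ± 0.182 (edgeR adjusted p = 8.42e-06). Fasl, a death ligand, was at 36.2 and 104 CPM in conventional CD4 cells, against 15.7 and 12.7 CPM in Foxp3 regulatory cells, a difference of 2.58 ± 0.383 (edgeR adjusted p = 0.00012) that was lost after thinning. Klrk1, which encodes the receptor NKG2D, was at 78.4 and 132 CPM in conventional CD4 cells, against 41.8 and 21.6 CPM in Foxp3 regulatory cells, a difference of 2.00 ± 0.339 (edgeR adjusted p = 0.000525). Gzmc, another granzyme, showed opposite directions in the tumours, at 6.03 and 1606 CPM in conventional CD4 cells, against 104 and 10.2 CPM in Foxp3 regulatory cells, and 605 of its 791 UMIs in replicate 3 lay in 1 cell. Its edgeR log2 fold change was 4.2 over both tumours. In replicate 1 alone the log2 ratio of CPM, with 10 CPM added to each level, was -2.84. The call was lost without the block, with DESeq2 and after 10% free RNA was subtracted.

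Genes named for the size of their change included secreted factors. Ccl1, a chemokine whose receptor CCR8 is carried by regulatory T cells, was at 856 and 75.1 CPM in conventional CD4 cells, against 0 and 0 CPM in Foxp3 regulatory cells, at least 124-fold higher with 3 counts over the class as the floor. All 142 of its UMIs in replicate 1 came from 1 cell, whereas the 37 in replicate 3 came from 8. CD8 T cells also held Ccl1, at 497 and 677 CPM. The difference of conventional CD4 from CD8 T cells was -0.88 ± 0.686 and did not pass (edgeR adjusted p = 0.688). After thinning that difference was -1.62 (edgeR adjusted p = 0.0138). Tbc1d4, a regulator of glucose transporter traffic, was at 229 and 156 CPM in conventional CD4 cells, against 0 and 6.34 CPM in Foxp3 regulatory cells, a difference of 5.74 ± 0.522 (edgeR adjusted p = 1.90e-07). On the lower side, Xcl1, the chemokine that attracts cross-presenting dendritic cells, was at 0 and 10.2 CPM in conventional CD4 cells, against 62.6 and 260.1 CPM in Foxp3 regulatory cells, a difference of -4.51 ± 0.447 (edgeR adjusted p = 7.61e-07), and Rapsn was at 0 and 2.03 CPM in conventional CD4 cells, against 78.3 and 171 CPM in Foxp3 regulatory cells, a ratio of 0.0115 (95% exact interval 0.000290 to 0.0649). Cxcl2, a neutrophil chemoattractant, differed by -3.80 with all barcodes and by -0.63 (edgeR adjusted p = 0.353) without those rich in S100a8 and S100a9.

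Of 13 trafficking genes tested, 3 were higher and 3 lower. Itgb1, the integrin beta 1 chain, was at 344 and 309 CPM in conventional CD4 cells, against 99.2 and 73.6 CPM in Foxp3 regulatory cells, a difference of 2.06 ± 0.289 (edgeR adjusted p = 6.21e-05), and Itga4 and Gpr183 were higher too. Ccr2, the receptor for monocyte chemoattractants, was at 211 and 93.4 CPM in conventional CD4 cells, against 679 and 494 CPM in Foxp3 regulatory cells, a difference of -1.92 ± 0.253 (edgeR adjusted p = 2.82e-05), and Itgb7 was also lower. Itgae, the integrin chain that holds T cells in epithelium, was at 30.1 and 14.2 CPM in conventional CD4 cells, against 412 and 183 CPM in Foxp3 regulatory cells, a difference of -3.57 ± 0.308 (edgeR adjusted p = 1.39e-07). Cxcr6, a receptor of tissue-resident T cells, did not pass, at 615 and 364 CPM in conventional CD4 cells, against 505 and 384 CPM in Foxp3 regulatory cells (adjusted p = 0.637), and neither did Cxcr3 (adjusted p = 0.824). Of 14 glycolysis and hypoxia genes tested, Pgam1, Pkm, Bnip3 and Egln3 were lower and none higher. Egln3 differed by -2.15 with the neutrophil-rich barcodes and by -1.78 without them (edgeR adjusted p = 0.0567), and its call was lost under 5 alternatives. Pkm, a glycolytic enzyme, was at 513 and 632 CPM in conventional CD4 cells, against 1134 and 1476 CPM in Foxp3 regulatory cells, a difference of -1.02 ± 0.19 (edgeR adjusted p = 0.00124). Of 14 immediate early and heat shock genes, 6 were higher, or 5 without the collagen-rich barcode, and the member lost was Egr1, which differed by 1.77 with it and by 0.46 without it (edgeR adjusted p = 0.723). Fos itself was higher by 1.74 with it and by 1.23 without it (edgeR adjusted p = 0.00278). After thinning 2 of 13 were called.

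The remaining lists moved little or in both directions. Of 16 tissue residence genes tested, Rgs2, Vps37b and Ramp3 were higher and Itgae, Crem and Lgals1 lower, with a median of -0.35. Of 17 interferon-stimulated genes tested, Slfn1 was higher and Ifi27l2a, Gbp4 and Gbp7 were lower, with a median of -0.38. Gbp4 lost its call under 6 alternatives and Slfn1 and Ifi27l2a under 2 each, whereas Gbp7 kept its call. Of 14 feedback genes of NF-kappaB and T cell receptor signalling, Cd82, Dusp2 and Cblb were higher and none lower, with a median of 0.16. Their calls were lost under 4 alternatives for Cd82, 3 for Cblb and 2 for Dusp2. Of 14 genes of the T cell receptor complex and its signalling, 1 was higher and Cd2 was lower, with a median of -0.03. After thinning, 2 of 7 helper signals were higher and none lower, and 4 of 12 naive and central memory genes were higher and 1 lower. Of 13 regulatory genes 5 were then lower and none higher, and of 9 checkpoint genes 2 were lower and none higher. Of 15 cytotoxicity genes 3 were then higher and 4 lower.

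**Figure D2:**
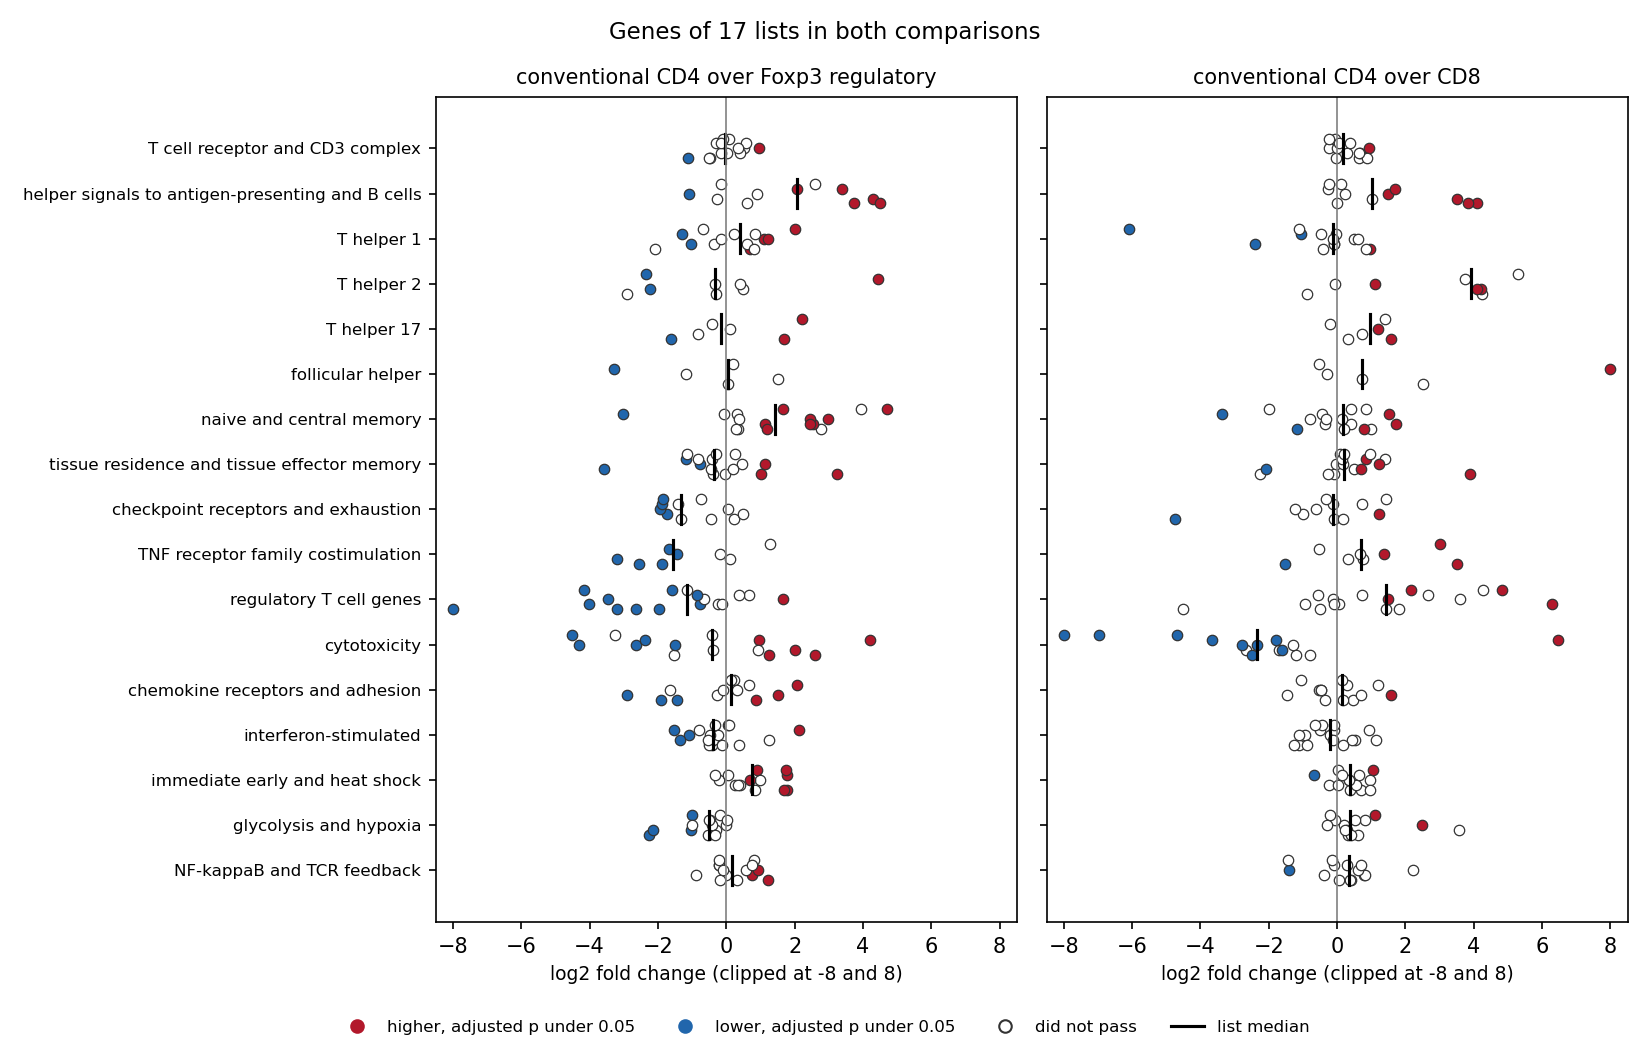
Log2 fold change of every tested gene of the 17 gene lists, conventional CD4 over Foxp3 regulatory T cells (left) and over CD8 T cells (right); filled points passed the edgeR test, open points did not, and black bars are list medians. The helper list has a median of 2.08 at the left and 1.01 at the right, and the cytotoxicity list one of -0.41 and -2.34.

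Against CD8 T cells, conventional CD4 T cells had more RNA for helper ligands and for costimulatory receptors, and far less for cytotoxic and NK receptor genes. Of 7134 genes tested in the same fit, 108 were higher (1.51% of those tested) and 71 lower (0.995%). Of these 179 genes (2.51% of those tested), 171 had the same direction in both tumours, which is again description of the tumours that gave the calls. Without the tumour block 19 were higher and 20 lower, with DESeq2's Wald test 42 and 36, and after thinning 34 and 23, while with no filter on low counts the counts were 181 and 122. The CD8 class of replicate 1 rests on 17 cells. Both comparisons use the same conventional CD4 sums, so their results are not independent of each other, and the values stand side by side without a test between them.

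Helper signals were again higher. Of the 11 tested, 5 were higher and none lower, with a median of 1.01, against -0.000252 over all genes; after thinning 2 of 7 were higher. Tnfsf8 was at 422 and 498 CPM in conventional CD4 cells, against 0 and 43.1 CPM in CD8 T cells, a difference of 3.83 ± 0.454 (edgeR adjusted p = 1.84e-05) that did not pass with DESeq2. Cd40lg had 3 and 25 UMIs in conventional CD4 cells, against 0 and 3 in CD8 T cells, a ratio of summed levels of 19.4 (95% exact interval 6.0 to 99.8), a call that was lost without the block and after 10% free RNA was subtracted. Csf2 was at 12.1 and 575 CPM in conventional CD4 cells, against 0 and 43.9 CPM in CD8 T cells, a difference of 3.52 ± 0.327 (edgeR adjusted p = 7.20e-07) that was lost without the block. Icos was at 500.5 and 359 CPM in conventional CD4 cells, against 185 and 114 CPM in CD8 T cells, a difference of 1.5 ± 0.22 (edgeR adjusted p = 0.000247), whereas Tnfsf11, at 319.6 and 219 CPM in conventional CD4 cells, against 28.4 and 82.2 CPM in CD8 T cells, differed by 1.68 ± 0.314 (edgeR adjusted p = 0.00303) and was lost without the block and after thinning. As stated above, 36 of the 53 Tnfsf11 UMIs of conventional CD4 cells in replicate 1 lay in 1 cell.

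Tnfrsf4, Tnfrsf18 and Ctla4, which were lower against regulatory cells, were higher against CD8 T cells, so conventional CD4 T cells lay between the other classes in their levels; Cd27 was lower in both comparisons, though against CD8 T cells its call was lost under 4 alternatives, with a difference of -1.51 that was -0.79 after thinning (edgeR adjusted p = 0.714). Of the 8 TNF receptor family genes 3 were higher and 1 lower, with a median of 0.71. Tnfrsf4 was at 271 and 502 CPM in conventional CD4 cells, against 21.3 and 36.6 CPM in CD8 T cells, a difference of 3.52 ± 0.27 (edgeR adjusted p = 2.94e-08). Tnfrsf18 was at 374 and 451 CPM in conventional CD4 cells, against 99.4 and 179 CPM in CD8 T cells, a difference of 1.38 ± 0.219 (edgeR adjusted p = 0.000625), and Ctla4 at 326 and 290.4 CPM in conventional CD4 cells, against 63.9 and 143 CPM in CD8 T cells, a difference of 1.23 ± 0.261 (edgeR adjusted p = 0.0101); both were lost without the block. Cd28, the receptor for costimulation by B7 ligands, was at 844 and 678 CPM in conventional CD4 cells, against 341 and 393 CPM in CD8 T cells, a difference of 0.93 ± 0.225 (edgeR adjusted p = 0.0238) that was lost under 6 alternatives. Il7r was at 374 and 256 CPM in conventional CD4 cells, against 71 and 98.5 CPM in CD8 T cells, a difference of 1.53 ± 0.257 (edgeR adjusted p = 0.00114). Izumo1r had 7 and 22 UMIs in conventional CD4 cells and none in CD8 T cells, at least 20.1-fold higher. Tcf7 did not pass here, at 295 and 209 CPM in conventional CD4 cells, against 156 and 109 CPM in CD8 T cells (adjusted p = 0.0643).

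Of 8 T helper 2 genes tested, Maf, Ccr4 and Gata3 were higher and none lower. Maf was at 127 and 136 CPM in conventional CD4 cells, against 0 and 7.32 CPM in CD8 T cells, a difference of 4.11 ± 0.414 (edgeR adjusted p = 1.90e-06). Ccr4, a chemokine receptor of T helper 2 and regulatory cells, was at 30.1 and 32.5 CPM in conventional CD4 cells, against 0 and 1.63 CPM in CD8 T cells, a ratio of 21.8 (95% exact interval 5.34 to 192). Gata3 was at 121 and 160.4 CPM in conventional CD4 cells, against 63.9 and 61.9 CPM in CD8 T cells, a difference of 1.11 ± 0.28 (edgeR adjusted p = 0.0321) that was lost under 5 alternatives, the block and DESeq2 among them. Il13 was at 36.2 and 24.4 CPM in conventional CD4 cells, against 7.1 and 0.814 CPM in CD8 T cells and did not pass (adjusted p = 0.0602). Of 6 T helper 17 genes tested, Rora and Tmem176b were higher, by 1.20 and 1.58, and both were lost without the block. Ifng was not called, at 90.4 and 77.2 CPM in conventional CD4 cells, against 78.1 and 208 CPM in CD8 T cells (adjusted p = 0.133).

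The cytotoxicity list was the group with the most members lower, 9 of 15, and 1 higher, with a median of -2.34. Nkg7 was at 235 and 297 CPM in conventional CD4 cells, against 1442 and 1962 CPM in CD8 T cells, a difference of -2.78 ± 0.185 (edgeR adjusted p = 2.98e-09). Xcl1 was at 0 and 10.2 CPM in conventional CD4 cells, against 383 and 1049 CPM in CD8 T cells, a difference of -6.98 ± 0.40 (edgeR adjusted p = 2.89e-10), and Klrd1, the NK receptor chain CD94, at 103 and 54.8 CPM in conventional CD4 cells, against 319.6 and 383 CPM in CD8 T cells, a difference of -2.48 ± 0.276 (edgeR adjusted p = 8.32e-06). Eomes, a factor of cytotoxic cells, had no UMI in conventional CD4 cells, against 14.2 and 45.6 CPM in CD8 T cells, and Prf1, perforin, was at 12.1 and 2.03 CPM in conventional CD4 cells, against 35.5 and 58.6 CPM in CD8 T cells, a difference of -3.65 ± 0.618 (edgeR adjusted p = 0.0012). Gzmc was again the member that was higher, with an edgeR difference of 6.47 over both tumours, lost without the block and with DESeq2. In replicate 1 alone its log2 ratio of CPM, with 10 CPM added to each level, was -0.59. Gzmb, at 54.3 and 52.8 CPM in conventional CD4 cells, against 21.3 and 153 CPM in CD8 T cells, did not pass (adjusted p = 0.146).

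Outside that list, Ccl5, a chemokine of effector T cells, was at 60.3 and 544 CPM in conventional CD4 cells, against 895 and 2014 CPM in CD8 T cells, a difference of -2.40 ± 0.299 (edgeR adjusted p = 3.46e-05) that was lost without the block. Ly6c2, a marker of memory CD8 T cells, was at 24.1 and 4.06 CPM in conventional CD4 cells, against 440.3 and 695 CPM in CD8 T cells, a difference of -6.08 ± 0.583 (edgeR adjusted p = 9.19e-07). Crtam, an adhesion molecule of activated cytotoxic cells, was at 0 and 4.06 CPM in conventional CD4 cells, against 170.4 and 127 CPM in CD8 T cells, a ratio of 0.0231 (95% exact interval 0.00278 to 0.0847). On the higher side, Tbc1d4 was at 229 and 156 CPM in conventional CD4 cells, against 14.2 and 8.14 CPM in CD8 T cells, a difference of 4.15 ± 0.478 (edgeR adjusted p = 1.34e-05), and Ramp3, a coreceptor for calcitonin-family peptides, at 205 and 183 CPM in conventional CD4 cells, against 0 and 14.6 CPM in CD8 T cells, a difference of 3.89 ± 0.523 (edgeR adjusted p = 9.29e-05); neither passed with DESeq2.

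The remaining lists held few calls against CD8 T cells. Of 17 regulatory genes tested, Nrp1, Il10, Ebi3 and Socs2 were higher and none lower, with a median of 1.44; Il10 had no UMI in replicate 1 and 8 in replicate 3, against none in CD8 T cells. After thinning none of 13 was called and the median was 0.25; the Il10 call was lost under 6 alternatives, Nrp1 under 5, and Ebi3 and Socs2 under 2 each. Of 16 naive and central memory genes S1pr1, Il7r and Ets1 were higher and 2 lower, among them Txk, and of 16 residence genes Rgs1, Rgs2, Odc1 and Ramp3 were higher and Itgae lower. Of 14 T helper 1 genes Bhlhe40 was higher and Ccl5, Hopx and Ly6c2 were lower, and of 11 checkpoint genes Ctla4 was higher and Cd160 lower. Itga4 was the call among 13 trafficking genes, Cd28 among 14 T cell receptor genes and Dusp2, which was lower, among 14 feedback genes. Ndrg1 and Hif1a were higher among 14 glycolysis and hypoxia genes, Fos was higher and Hspa8 lower among 14 immediate early and heat shock genes, and none of 17 interferon-stimulated genes passed with edgeR. Hspa8 lost its call under 6 alternatives, Odc1 under 5, Txk and Itga4 under 3 each, and Itgae, Hopx and Bhlhe40 under 2 each. Ets1 and Rgs1 were not called at a minimum of 3000 UMIs or after 10% free RNA was subtracted. The Fos and Ndrg1 calls were lost without the collagen-rich barcode, among other alternatives. Fos differed by 1.04 with it and by 0.46 without it (edgeR adjusted p = 0.526), and Ndrg1 by 2.49 with it and by 1.57 without it (edgeR adjusted p = 0.417). Rhob and Cd63 differed by 1.97 and 3.14 with the collagen-rich barcode and by -1.08 and 0.93 without it, where neither passed.

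The cells were not uniform. Tcf7, Gata3, Cxcr6 and Ccr7 were detected in many of them and most cytokines in few. Shares of cells with a UMI depend on depth, which was lower here than in macrophages. Tcf7 had a UMI in 15 of 35 cells of replicate 1 and 46 of 80 of replicate 3, 42.9% (interval 26.3 to 60.6) and 57.5% (interval 45.9 to 68.5), against 1.29% and 1.21% of macrophages. Gata3 had one in 40% and 57.5%, Cxcr6 in 57.1% and 52.5% and Ccr7 in 34.3% and 38.8%, whereas Tbx21 was seen in 8.57% and 10%. Thinned to 2000 UMIs per cell, which left out 1 cell of replicate 1, the shares were 29.4% and 35% for Tcf7, 23.5% and 28.8% for Gata3, 50% and 37.5% for Cxcr6 and 17.6% and 25% for Ccr7.

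**Figure D3:**
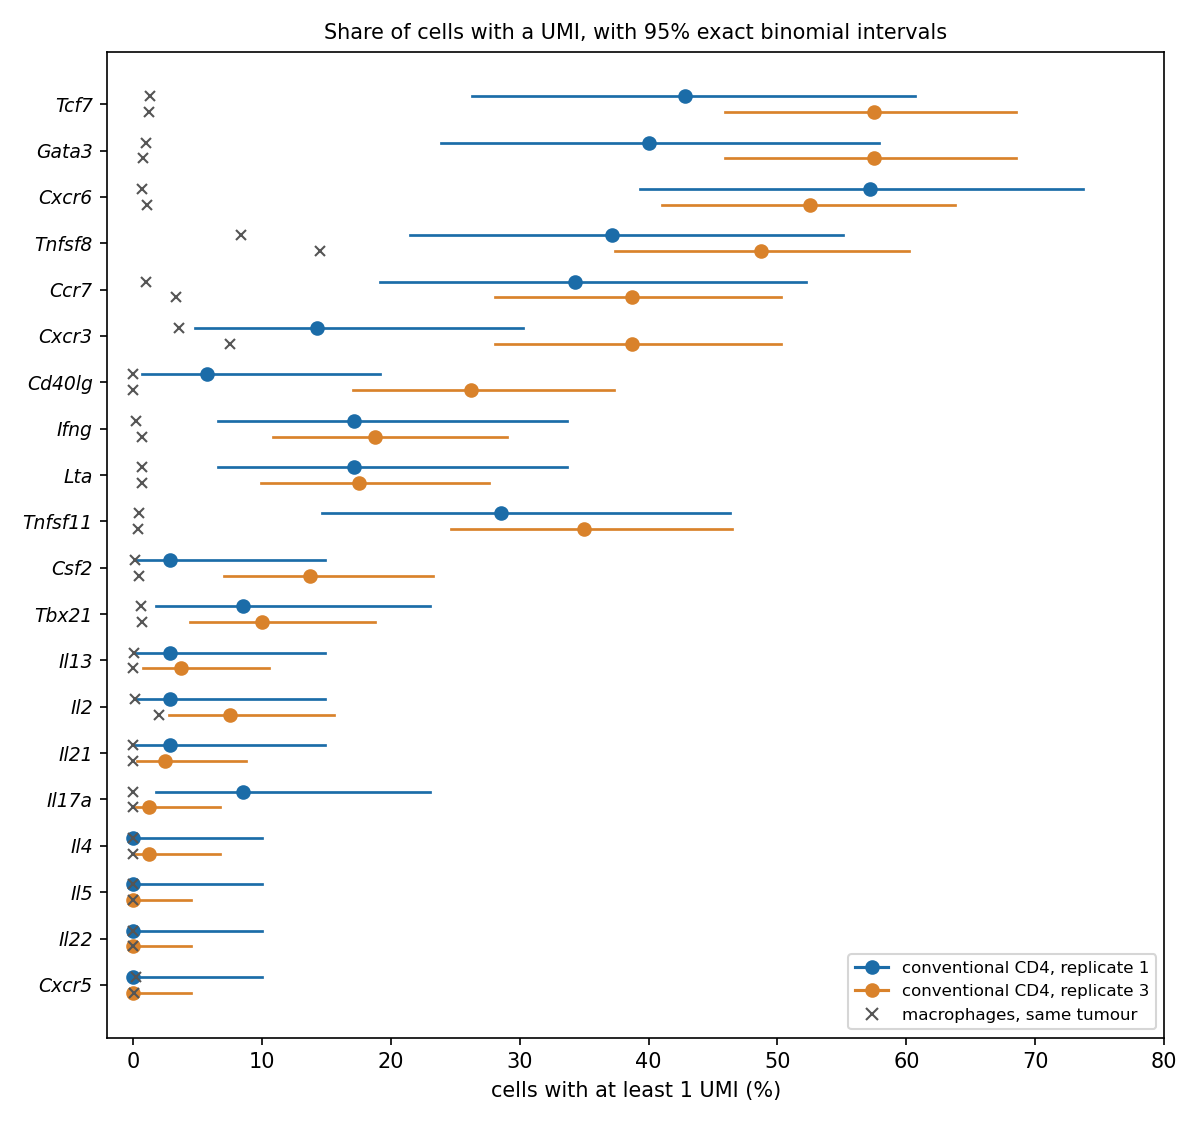
Percent of conventional CD4 T cells with at least 1 UMI of each gene, with 95% exact binomial intervals, in replicate 1 (blue, 35 cells) and replicate 3 (orange, 80 cells); crosses mark the same share in macrophages of the tumour, whose cells are deeper. Cd40lg lies at 5.71% and 26.2%, and Il5, Il22 and Cxcr5 at 0 in both tumours.

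Cytokines and ligands were scattered over the cells. Cd40lg was detected in 2 of 35 cells of replicate 1 and 21 of 80 of replicate 3, 5.71% (interval 0.70 to 19.2) and 26.2% (interval 17 to 37.3), against 0.0301% and 0% of macrophages. After thinning its shares were 2.94% and 10%, the first being 1 of 34 cells. Ifng was detected in 6 of 35 cells of replicate 1 and 15 of 80 of replicate 3, against 0.241% and 0.674% of macrophages. Tnf was detected in 2.86% and 15% of conventional CD4 cells and 42% and 49.6% of macrophages, so its share is not read as expression here. Csf2 had a UMI in 1 of 35 cells of replicate 1 and 11 of 80 of replicate 3, and the highest cell held 87 of the 283 UMIs of replicate 3.

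Signature cytokines of the other programs were rare. Il17a was seen in 3 of 35 and 1 of 80 cells, with 1 UMI in each, and Il17f in 2 and 0. Il13 was seen in 1 and 3 cells, Il4 in 0 and 1, Il21 in 1 and 2 and Il2 in 1 and 6. No UMI of Il5, Il22, Il23r or Cxcr5 was found in any of the cells, which allows a share of cells with a UMI of up to 8.57% in replicate 1 and 3.75% in replicate 3 (3 counts taken as the limit).

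Several of these genes met in the same cells of replicate 3. All 11 cells with Csf2 also held Tnfsf8, which was detected in 39 of the 80 cells, and all 11 held Cxcr6, detected in 42. Of the same 11, 9 held Gata3, 7 Pdcd1, 5 Gzmc, 5 Ccl1, 4 Cd40lg, 3 Ifng and 3 Il13. All 3 cells with Il13 held Gata3, Csf2 and Pdcd1. Cd40lg and Ifng, detected in 21 and 15 cells, were found together in 3. These overlaps are counts in cells of unequal depth and carry no test.

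Conventional CD4 T cells had a higher ZC1 code share than all barcodes in replicate 1 and a like share in replicate 3. The codes label cells by the region they were printed on. The share of ZC1 in ZC1 plus ZC5 code UMIs was read in cells with at least 10 such UMIs. In replicate 1 the median share was 76.1% in conventional CD4 T cells (35 cells), against 58.4% in Foxp3 regulatory cells, 56.6% in CD8 T cells, 63.8% in NK cells (at least 1 UMI of Ncr1, none of Cd3e, Cd4, Foxp3 or Csf1r), 44.6% in macrophages and 47.5% over all passing barcodes. There, 26 of 35 conventional CD4 cells, 74.3% (95% exact interval 56.7 to 87.5), lay above the median of all barcodes, and so did 68.6% of Foxp3 regulatory, 64.7% of CD8 and 72.4% of NK cells, so the other lymphocyte classes were above it too. In replicate 3 the medians were 22.7% in conventional CD4 T cells (78 cells), against 23.1% in Foxp3 regulatory cells, 19.3% in CD8 T cells, 21.0% in NK cells, 23.0% in macrophages and 22.9% over all passing barcodes, and 39 of 78 cells, 50% (38.5 to 61.5), lay above the median of all barcodes.

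The higher ZC1 share of replicate 1 was not seen in replicate 3, and no test was made. A further code made up a median of 24.9% of the UMIs of all codes, as ZC2, in replicate 1, against 24.0% over all barcodes, and 67.2%, as ZC6, in replicate 3, against 66.7%. Median UMIs of ZC1 and ZC5 together were 205 and 105.5 per conventional CD4 cell, against 402 and 95 over all barcodes. The labels do not say which code marks which region, so no share is read here as a YFP, RFP or mixed region.

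**Figure D4:**
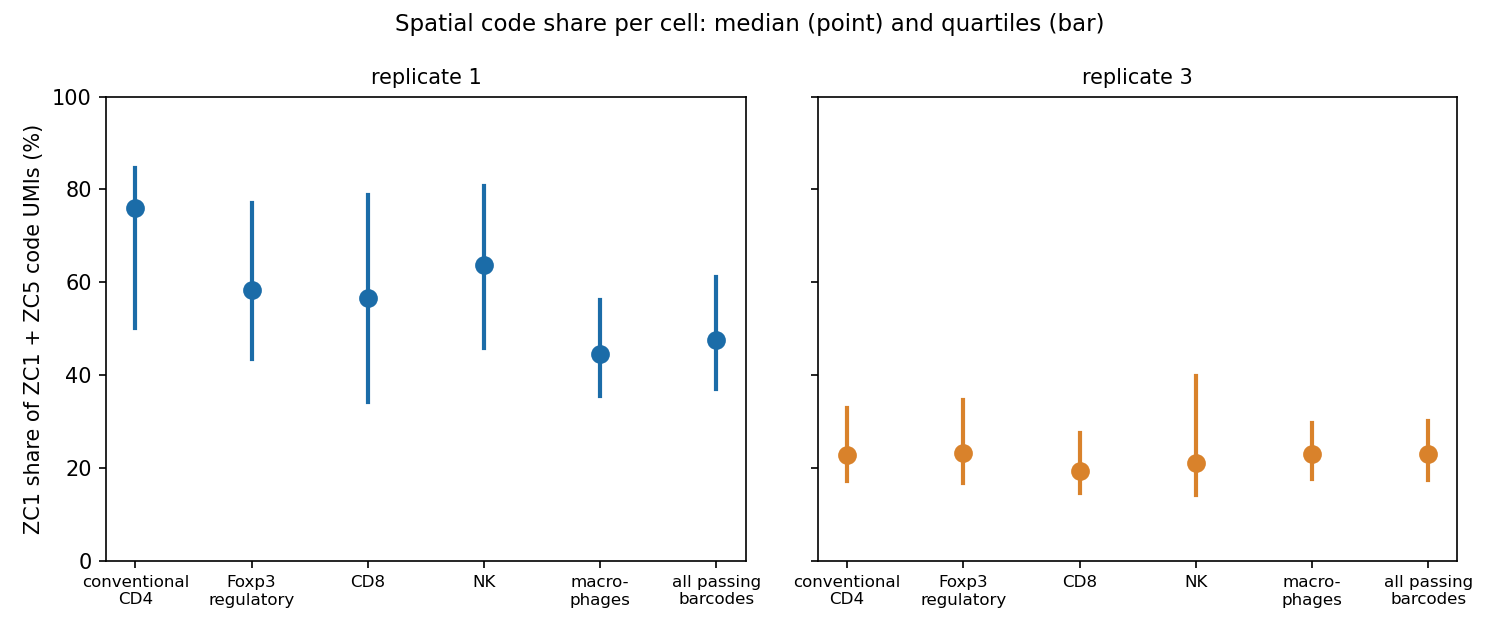
ZC1 share of ZC1 plus ZC5 code UMIs per cell, in percent; points are medians and bars span the quartiles, for each class in replicate 1 (left) and replicate 3 (right). Conventional CD4 T cells lie at 76.1% in replicate 1, against 47.5% for all passing barcodes, and at 22.7% in replicate 3, against 22.9%.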

How the data were processed

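The authors deposited raw UMI counts for every barcode. The submitters' processing notes name Cell Ranger 4.0 and mm10. Which annotation release was used, and how ambiguous reads were treated, is not given in these sources. The members, gene lists and tests were chosen with earlier results of these data known.

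UMIs were summed per tumour and gated class, and CPM scale that sum to 1000000 gene UMIs. Conventional CD4, Foxp3 regulatory, CD8 T and NK classes (8 sums) entered 1 edgeR 4.0.16 fit (limma 3.58.1, R 4.3.3) with TMM, filterByExpr and the tumour as a block, tested by the quasi-likelihood F-test with Benjamini-Hochberg adjustment over 7134 genes. Genes of the gates, YFP and RFP were not tested. The block rests on the shared tissue: differences between tumours correlated across genes at 0.182 to 0.359 over 6 pairs of classes. NK cells served the fit and, like macrophages, the code comparison. Genes were named by size of change (8 in each direction, called, with at least 50 CPM in the higher class and 1 direction in both tumours), by list (up to 4 members, smallest p) or from a set of helper and subset genes, with further members named after their values were seen. Scrublet, through scanpy 1.11.5, marked 0 barcodes by its own threshold and so did not work here; as an alternative, barcodes with the highest scores, 0.8% per 1000 cells (186 and 363 barcodes, 0 of them conventional CD4) were left out. DESeq2 1.42.0, other filters, thinning and leaving out cells of another type were further alternatives. Standard errors were derived from the F statistic, the fit had 3 residual degrees of freedom, and Cd244a of the checkpoint list was not found. Intervals (95%, exact) cover counting error only. Those of ratios pool UMIs over both tumours and count each UMI as independent, so spread between cells and tumours is left out. The fold limits set by 3 counts pool UMIs in the same way. A few genes, and a split of the cells that used one of them, are not reported here. The fit was tested on simulated data. No value column was set aside (0 columns).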

Additional observations from a re-analysis of the deposited data

How the results depend on the processing

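The tumour block decided many calls. With no replicate block, 77 genes were higher and 94 lower against Foxp3 regulatory cells and 19 and 20 against CD8 T cells, and all 171 and 39 of these had been called with the block. DESeq2's Wald test gave 162 and 124, and 42 and 36. Thinning to 2000 UMIs gave 136 and 114, and 34 and 23. No filter on low counts gave 181 higher and 122 lower against CD8 T cells. Counts under the other alternatives, DESeq2 size factors, 3000 UMIs, 5% mitochondrial UMIs, doublet scores, macrophage-rich barcodes, 10% free RNA and 2 classes in the fit, were each within 1.5 times of the count reported. Leaving out collagen-rich barcodes gave 271 and 272, and 103 and 73; leaving out neutrophil-rich ones gave 257 and 254, and 120 and 81; both were chosen after seeing the data. Of the genes named and called, 38 of 82 against Foxp3 regulatory cells and 13 of 58 against CD8 T cells kept their call under every alternative with a p. Without barcodes over 1% macrophage UMIs, the share among passing barcodes was 2.87%, since most macrophages left the denominator; it was 0.726% to 1.19% with 1 tumour left out.

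Directions turned for few genes. Against Foxp3 regulatory cells, thinning gave Egr1 -0.07. Rhob and Cd63 differed by 2.74 and 1.40 with the collagen-rich barcode and by -0.22 and -0.64 without it. Klf4, which kept its direction there, differed by 2.68 with it and by 1.19 without it (edgeR adjusted p = 0.138). Without replicate 3 Gzmc was -2.84, Klf4 -0.35 and Cd63 -0.65, and without replicate 1 they were 6.33, 2.46 and 1.61. S100a8 and S100a9 were 0.27 and 0.22 without replicate 1 and -5.57 and -4.60 without replicate 3. Against CD8 T cells, Rhob was -0.05 after thinning, -1.08 without collagen-rich barcodes and -0.50 without replicate 3, and Gzmc was -0.59 without replicate 3; without replicate 1 they were 1.95 and 6.48. Where not stated above, the cause was not tested. Leaving out a tumour leaves 1 sum per class, hence values without a test. Fold changes with a tumour left out are log2 ratios of CPM with 10 CPM added to each level, not edgeR fold changes. Where a level is near 0, their size depends on that addition. Depth limits the cytokines: at a median of 4085 and 5043 UMIs per cell, a gene not seen may still be expressed.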

Other observations

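Cytosolic ribosomal protein genes, a list added after the data were seen, were higher in conventional CD4 T cells than in Foxp3 regulatory cells. Of 78 tested, 64 were higher and 1, Rps27l, was lower, with a median log2 fold change of 0.71, against -0.00731 over all genes. Rps29 was at 10690 and 5195 CPM in conventional CD4 cells, against 4280 and 2759 CPM in Foxp3 regulatory cells, a difference of 1.29 ± 0.152 (edgeR adjusted p = 6.80e-06). The list took 32.1% and 27.4% of gene UMIs in conventional CD4 T cells, against 20.0% and 20.4% in Foxp3 regulatory cells. Against CD8 T cells none of the 78 was higher and 2 were lower, with a median of -0.28, and the list took 34.2% and 33.6% of UMIs in CD8 T cells.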
